A study of Mus musculus with 6 samples.

Results

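Fatty acid oxidation and acyl-CoA handling is represented here by 35 genes, chosen by gene symbol from the 54532 genes of the deposited count table. They cover acyl-CoA synthetases, the carnitine shuttle, acyl-CoA dehydrogenases, the later steps of mitochondrial beta-oxidation, the electron transfer flavoprotein, peroxisomal beta-oxidation and acyl-CoA thioesterases. All 35 were found, and all 35 passed the filter on low counts that left 13900 genes for testing. RNA was sequenced from splenic naive CD4+ T cells of C57BL/6 mice after 72 h of culture with NETs (3 libraries) or with vehicle (3 libraries). NETs, neutrophil extracellular traps, consist of chromatin decorated with granule enzymes that activated neutrophils cast out. Cells of both groups received beads engaging CD3 and CD28, IL-2, and antibodies to IFNγ and IL-4. The sources used here do not give the origin or dose of the NETs, nor the age and number of mice. The labels do not say whether replicates came from different mice or wells, and p-values therefore measure only the spread between these libraries, which may be technical.

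Beta-oxidation shortens fatty acids in the mitochondrion. A fatty acid is first joined to coenzyme A, passed across the mitochondrial membranes as a carnitine ester, and then cut repeatedly by a dehydrogenase, a hydratase, a second dehydrogenase and a thiolase. The first dehydrogenase of each round hands its electrons to the electron transfer flavoprotein and so to the respiratory chain, and the acetyl-CoA released enters the TCA cycle. T cells that divide after stimulation rely strongly on glycolysis, while fatty acid oxidation has been linked to regulatory and memory T cells.

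Total counts were 17148910 to 18394828 in NETs libraries and 15657622 to 18655997 in vehicle libraries. Levels are given as CPM, counts divided by a library's total and scaled so that each library has the same sum, or as the authors' FPKM, which also divides by a gene length. T cell markers were abundant, with Cd4 at 872 to 898 CPM in NETs libraries and 854 to 955 CPM in vehicle libraries. Markers of B cells (5 genes) summed to 13.2 to 19.2 CPM with NETs and 17.6 to 18.3 CPM with vehicle, and those of CD8 T cells (2 genes) to 13.0 to 19.5 and 18.4 to 20.8 CPM. The 4 NK cell markers summed to 4.37 to 6.69 CPM with NETs and 5.88 to 10.1 CPM with vehicle, with Klra8 at 0 reads. Nearly all of it was Eomes, at a mean of 5.38 CPM with NETs and 7.53 CPM with vehicle, with overlapping groups. Klrb1c (0.129 and 0.0207 CPM) and Ncr1 (0.0778 and 0.0426 CPM) had few reads, with the higher mean in NETs libraries. The 8 neutrophil markers summed to 3.90 to 4.95 CPM with NETs and 1.55 to 2.75 CPM with vehicle. Among them, Ly6g had no read in either group, and S100a9 had 0.932, 1.30 and 1.17 CPM with NETs and no read in any vehicle library. The log2 fold change of S100a9 was 7.30 (SE 1.18, edgeR unadjusted p = 3.68e-05, adjusted p = 0.170), the largest of all genes tested. It rested on 16, 24 and 20 reads in NETs replicates 1 to 3. S100a8 was also wholly higher with NETs (mean 0.530 against 0.0213 CPM). The other neutrophil markers overlapped, among them Mpo (mean 2.03 with NETs and 1.62 CPM with vehicle) and Ltf (0.360 and 0.450 CPM). The 7 macrophage and dendritic cell markers summed to 39.0 to 51.2 CPM with NETs and 28.1 to 39.8 CPM with vehicle. Most of that sum was the lysozyme gene Lyz2, at 30.7, 38.8 and 38.5 CPM with NETs and 30.1, 19.4 and 21.0 CPM with vehicle, groups that did not overlap (log2 fold change 0.63, SE 0.16; unadjusted p = 0.00149; edgeR adjusted p = 0.223). The B cell factor Pax5 had 1.05, 1.09 and 1.40 CPM with NETs and 1.72, 3.13 and 2.86 CPM with vehicle, all NETs values lower (log2 fold change −1.11, SE 0.41; unadjusted p = 0.0178; edgeR adjusted p = 0.292). Of the other macrophage and dendritic cell markers, Adgre1 was wholly higher with NETs (mean 2.33 against 1.42 CPM). Itgax was wholly lower (0.300 against 0.887 CPM), and Cd14, Cd68, Csf1r and Flt3 overlapped. The single marker genes named here are given after their values were seen. The part of these traces in the results was not tested. In bulk RNA, fewer cells of a type and less RNA per cell cannot be told apart. By the chi-square per degree of freedom of a comparison of counts over genes, vehicle replicate 3 differed from NETs replicates 1 to 3 by 11.97, 8.78 and 11.3, and from vehicle replicates 1 and 2 by 11.4 and 17.9. The 8.78 was the smallest value among all pairs of libraries.

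As a group, the 35 genes lay slightly higher in NETs libraries, and the separate genes differed little. With p-values of the edgeR quasi-likelihood test adjusted by Benjamini-Hochberg over all genes, 0 of 35 members passed an adjusted p of 0.05, against 0% of all genes tested, and the members' adjusted p ran from 0.223 to 0.998. DESeq2 called 0 members and 145 of the 7004 genes to which it gave an adjusted p, Etfb not being among those. Limma on FPKM called 0 members and 2 of 13900 genes. At an unadjusted p under 0.05 there were 8 members with a higher level in NETs libraries, 22.9% of the 35, where 6.72% of all genes tested met that rule. At the same p, 0 members had a lower level, where 6.06% of all genes tested did. A log2 fold change, NETs over vehicle, above 0 was found in 29 members (82.9%), against 50.2% of all genes tested. The members' median was 0.08, and the median of all genes tested was 0.00. The largest difference in favour of NETs was 0.66 (Etfb), and the largest in favour of vehicle was −0.29 (Acad10). In CPM, the 3 NETs libraries lay wholly above the 3 vehicle libraries in 9 members (25.7%), against 7.68% of all genes tested. They lay wholly below in 1 member (Acox3), against 9.04%, a separation that did not hold after TMM scaling. The count of 8 changed with the libraries included, and so did the share of all genes tested that met the same rule. It was 3 members without NETs replicate 1 (3.03% of all genes), 4 without vehicle replicate 2 (4%), 5 without vehicle replicate 1 (4.08%) and 10 without vehicle replicate 3 (11%). The 29 members above 0 became 24 without NETs replicate 1, NETs replicate 2 or vehicle replicate 2, and 26 without vehicle replicate 3. They became 30 without vehicle replicate 1 and 31 without NETs replicate 3. Over these settings the median log2 fold change of all genes tested ran from −0.0023 to 0.0034. The shares of 6.72%, 6.06% and 7.68% over all genes apply equally to the counts given for each role.

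**Figure D1:**
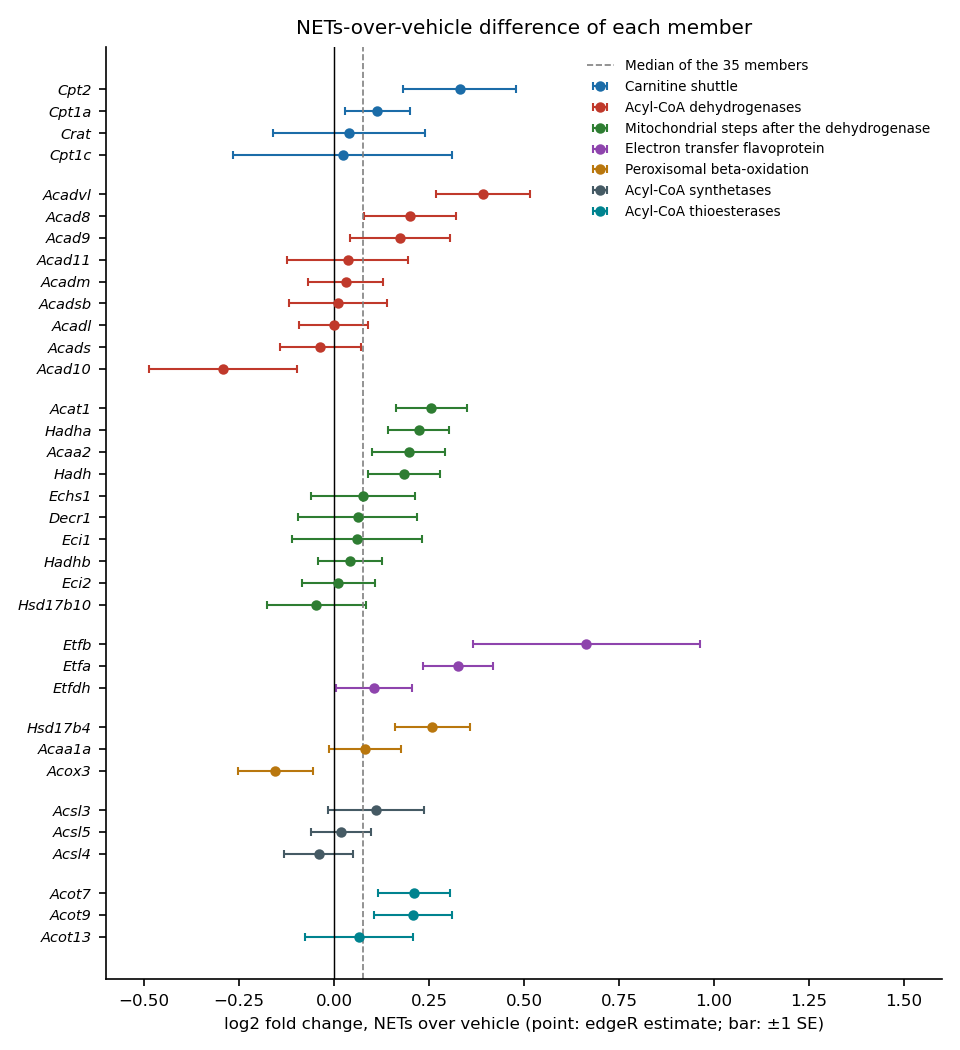
Log2 fold change, NETs over vehicle, of each of the 35 members (x axis), grouped by role and ordered within it; points are edgeR estimates from 3 NETs and 3 vehicle libraries and bars are ±1 SE. Of the points, 29 lie right of 0, around a median of 0.08 (dashed line), with Etfb (0.66) at one end and Acad10 (−0.29) at the other.

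Libraries differed in the summed level of the members. Summed over the 35 genes, the level was 2417, 2400.1 and 2311 CPM in NETs replicates 1 to 3, against 2284, 2089 and 2255 CPM in vehicle replicates 1 to 3. Each NETs library was above each vehicle library, but the gap between NETs replicate 3 and vehicle replicate 1 was smaller than the gap between vehicle replicates 1 and 2. NETs replicate 1 held the highest level of 13 members and vehicle replicate 2 the lowest level of 15. On the log2 CPM scale, relative to each gene's mean over the 6 libraries, the members' median stood at 0.09, 0.09 and 0.02 in NETs replicates 1 to 3 and at −0.01, −0.11 and −0.03 in vehicle replicates 1 to 3. Over all genes tested the same median lay between −0.00 and 0.01 in every library.

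**Figure D2:**
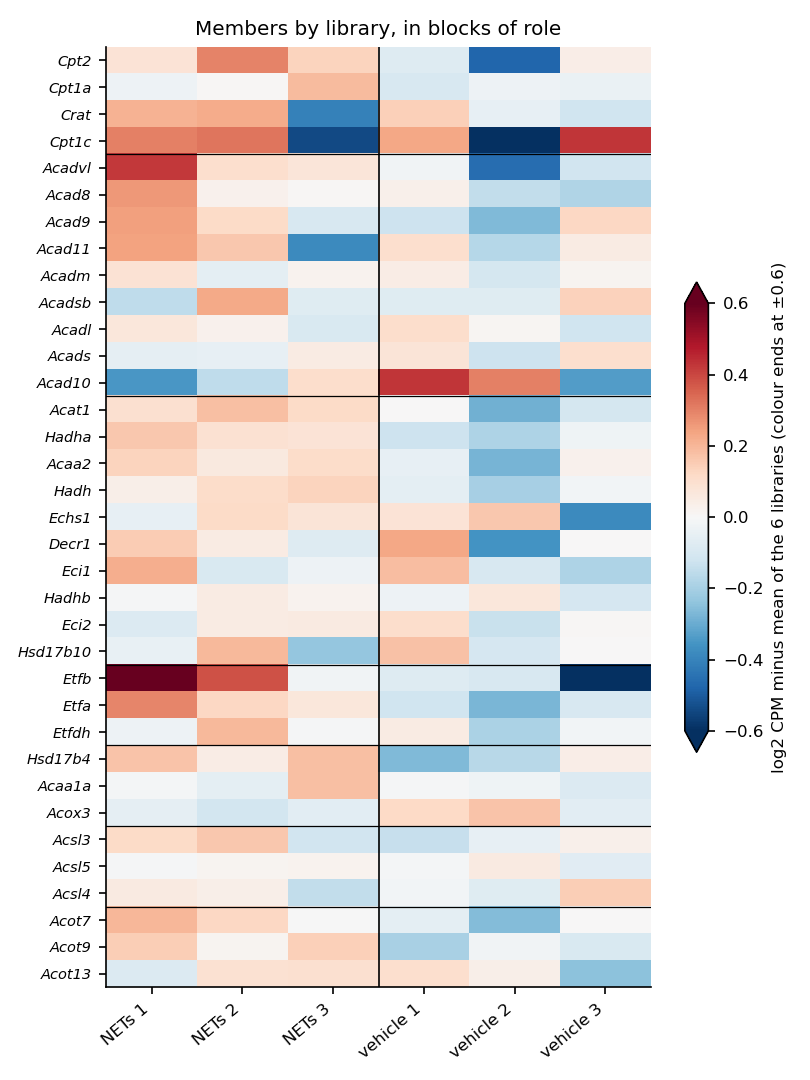
Level of each member in each library, as log2 CPM minus the gene's mean over the 6 libraries (colour; red higher, blue lower, ending at ±0.6), with NETs libraries left of the vertical line and vehicle libraries right of it, and roles separated by horizontal lines. Vehicle replicate 2 is the lowest library in 15 members, and Cpt1c is low in NETs replicate 3 and vehicle replicate 2.

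Per length, the members spanned from a mean FPKM over the 6 libraries of 7.07 (Acad10) to 145 (Acsl5). After Acsl5 came Hadha (135), Etfa (114), Acot7 (96.8), Acadl (81.2), Hsd17b4 (75.7) and Acadvl (71.2). At the low end, Crat (8.12), Etfb (7.84), Cpt1c (7.23) and Acad10 followed each other closely, and their libraries overlapped. Acsl5 averaged 145 ± 1.71 FPKM with NETs and 145 ± 4.88 FPKM with vehicle (SD, n = 3 each), and Hadha 145 ± 4.90 and 126 ± 7.84 FPKM, so that the pair was level in NETs libraries. The length by which the authors divided is not given; the values imply 0.181 to 1 times the deposited gene length among the members.

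**Figure D3:**
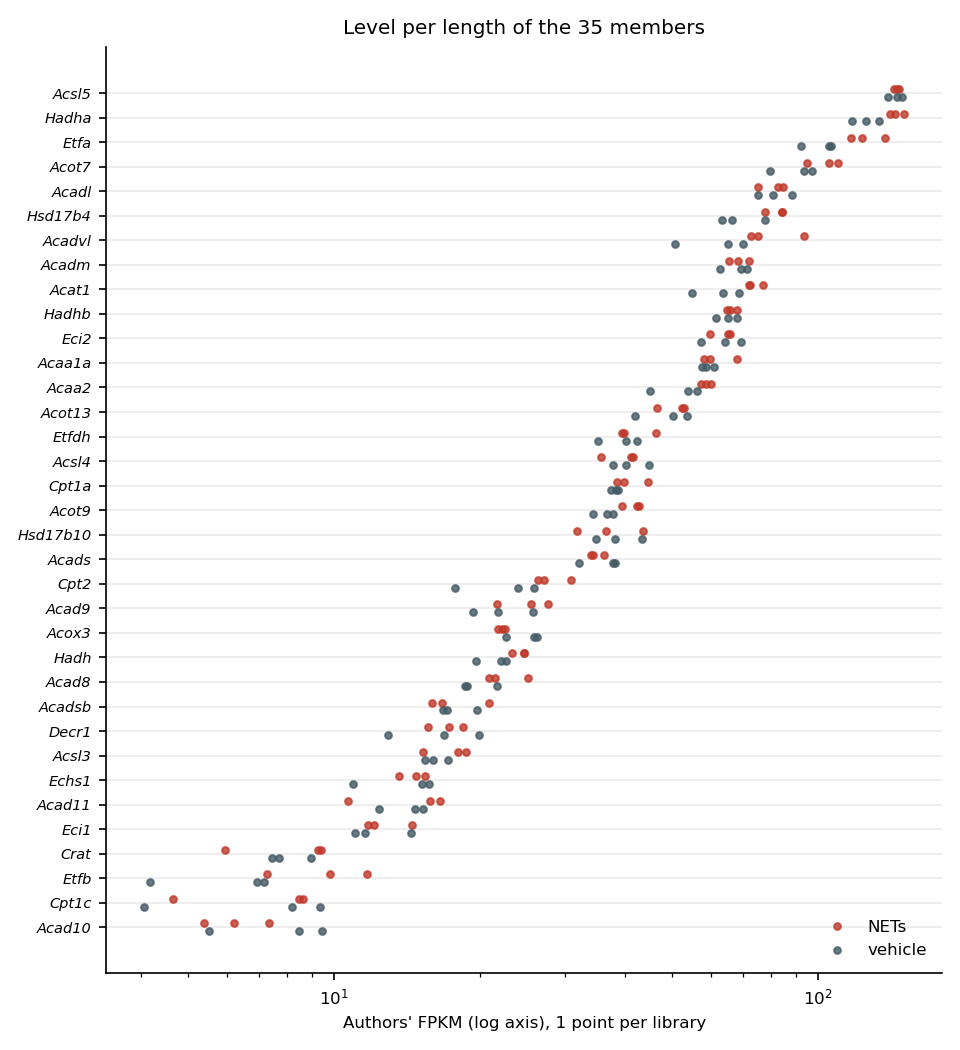
Authors' FPKM (log axis) of each of the 35 members in each library, ordered by the mean over 6 libraries; red points are the 3 NETs libraries and grey points the 3 vehicle libraries. The order runs from Acsl5 at a mean of 145 FPKM down to Acad10 at 7.07 FPKM, and red and grey points overlap in most rows.

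The synthetases activate long-chain fatty acids by joining them to coenzyme A. Gene coordinates here and for the other members are the deposited ones, on GRCm38. Acsl5 (ENSMUSG00000024981; chromosome 19, 55251938 to 55297720), a synthetase of mitochondria and the endoplasmic reticulum, had 156, 160 and 158 CPM in NETs libraries and 159, 162 and 152 CPM in vehicle libraries. The groups overlapped, and all 6 values lay within 1.07-fold of each other. Its log2 fold change was 0.02 (SE 0.08; 95% interval −0.15 to 0.19; edgeR adjusted p = 0.950). Acsl4, which prefers arachidonic acid, averaged 163 ± 13.3 CPM with NETs and 169 ± 14.6 CPM with vehicle (SD, n = 3 each). Acsl3, a synthetase of the endoplasmic reticulum and lipid droplets, averaged 29.6 ± 3.15 and 27.6 ± 1.57 CPM. Their log2 fold changes were −0.04 and 0.11, and of the 3 synthetases 0 met an unadjusted p under 0.05 in either direction. Some exonic bases of Acsl5 (8.31%) are shared with Zdhhc6 on the opposite strand.

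The carnitine shuttle carries the acyl group into the matrix. Cpt1a (ENSMUSG00000024900; chromosome 19, 3323301 to 3385732), the outer-membrane transferase that malonyl-CoA inhibits and that paces entry, had 166, 171 and 192 CPM with NETs and 161, 165 and 166 CPM with vehicle. NETs replicate 1 lay below vehicle replicate 3, so the groups overlapped, and the log2 fold change was 0.11 (SE 0.08; 95% interval −0.07 to 0.30; edgeR adjusted p = 0.590). Cpt2 (ENSMUSG00000028607; chromosome 4, 107903981 to 107923610), which turns acylcarnitine back into acyl-CoA at the inner membrane, had 25.7, 30.2 and 26.5 CPM with NETs and 23.4, 17.4 and 25.3 CPM with vehicle. All NETs values were above all vehicle values, though NETs replicate 1 exceeded vehicle replicate 3 only narrowly. The log2 fold change was 0.33 (SE 0.15; unadjusted p = 0.0421; edgeR adjusted p = 0.370), and over the alternatives it ran from 0.19 to 0.44 with adjusted p from 0.126 to 0.812.

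Crat, which moves acetyl groups to and from carnitine, averaged 11.3 ± 2.67 CPM with NETs and 11.1 ± 1.14 CPM with vehicle (SD, n = 3 each). Cpt1c, a paralog enriched in brain with little known transferase activity, split the libraries across the groups. It had 16.02, 16.3 and 8.81 CPM in NETs replicates 1 to 3 and 15.5, 7.66 and 17.7 CPM in vehicle replicates 1 to 3. NETs replicate 3 and vehicle replicate 2 were the low libraries, at about the same level as each other, and the log2 fold change was 0.02 (SE 0.29). Cpt1c is singled out after its values were seen. The FPKM ratio of Cpt1a to Cpt1c was 4.54, 4.60 and 9.57 in NETs libraries and 4.57, 9.45 and 4.14 in vehicle libraries. The FPKM ratio of Cpt1a to Cpt2 was 1.46 ± 0.177 with NETs and 1.73 ± 0.364 with vehicle (SD, n = 3 each). The FPKM values imply division by 1 times the deposited length for Cpt1a, but 0.337 times for Cpt1c and 0.408 times for Cpt2. The size of both ratios depends on those lengths, while their comparison between groups does not. The exact two-sided permutation p was 0.6 for Cpt1a over Cpt1c and 0.4 for Cpt1a over Cpt2, where 3 against 3 libraries cannot go below 0.1. Across the 6 ratios of partner genes computed here the Benjamini-Hochberg adjusted values were 0.6 and 0.48.

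Acyl-CoA dehydrogenases open each round of beta-oxidation and are sorted by chain length. Acadvl (ENSMUSG00000018574; chromosome 11, 70010183 to 70015411), for very long chains at the inner membrane, had 104, 83.8 and 81.1 CPM with NETs and 77.9, 56.4 and 72.7 CPM with vehicle. All NETs values were higher than all vehicle values, with NETs replicate 1 the highest and vehicle replicate 2 the lowest. The means were 89.7 ± 12.7 and 69.0 ± 11.2 CPM (SD, n = 3 each), 1.30 times as high with NETs, and the log2 fold change was 0.39 (SE 0.12; unadjusted p = 0.00658; edgeR adjusted p = 0.240). With no filter on low counts the adjusted p of Acadvl was 0.0177, and over all alternatives it ran up to 0.812. Annotated exons of Acadvl share 42.9% of their bases with Dvl2 on the opposite strand, and whether counting used strand is not given in the sources used here. Dvl2 itself had 49.5, 48.7 and 49.8 CPM with NETs and 50.6, 49.4 and 46.9 CPM with vehicle, a log2 fold change of 0.02 (SE 0.10).

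Acadl (ENSMUSG00000026003; chromosome 1, 66830839 to 66863277), the long-chain enzyme and the most abundant dehydrogenase of the set per length, had 108, 106 and 96.2 CPM with NETs and 113, 104 and 96.4 CPM with vehicle. The groups overlapped fully and the log2 fold change was −0.00 (SE 0.09; 95% interval −0.19 to 0.19; edgeR adjusted p = 0.998). The FPKM ratio of Acadvl to Acadl was 1.11, 0.909 and 0.969 with NETs and 0.791, 0.625 and 0.868 with vehicle. Each NETs ratio was above each vehicle ratio (exact two-sided permutation p = 0.1, the smallest that 3 against 3 allows; adjusted value 0.3 over the 6 ratios). Acad8 (ENSMUSG00000031969; chromosome 9, 26974135 to 26999566), the isobutyryl-CoA dehydrogenase of valine breakdown, had 39.3, 33.6 and 32.7 CPM with NETs and 34.0, 29.4 and 29.2 CPM with vehicle. Vehicle replicate 1 overlapped the NETs range, and the log2 fold change was 0.20 (SE 0.12; edgeR adjusted p = 0.510).

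The medium-chain enzyme Acadm averaged 54.5 ± 2.63 CPM with NETs and 53.9 ± 3.56 CPM with vehicle, and the short-chain enzyme Acads 44.1 ± 1.54 and 45.6 ± 4.31 CPM (SD, n = 3 each). Acad9, which also serves assembly of respiratory complex I, averaged 37.0 ± 4.52 CPM with NETs and 33.1 ± 4.79 CPM with vehicle, a log2 fold change of 0.17. Acadsb, for short branched chains, and Acad11 stood at 0.01 and 0.04. Acad10 had 14.0, 16.1 and 19.1 CPM with NETs and 24.5, 21.9 and 14.3 CPM with vehicle, with vehicle replicate 3 inside the NETs range. Of the 9 dehydrogenases, 1 (Acadvl) met an unadjusted p under 0.05 with a higher level and 0 with a lower level, and their median log2 fold change was 0.03.

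Promoter sequences are shown for 4 members, to let the start regions of partner genes and of the medium-chain enzyme be read beside their levels. RefSeq windows of GRCm38.p6, from 250 bases before to 50 bases after a gene's start, were matched for 28 of the 35 members. Both strands were searched for AAGGTCA (a half-site of estrogen-related receptors, known regulators of oxidative genes), CACGTG (the E-box), the NF-Y box CCAAT and GGGCGG (the GC box). The direct repeat bound by PPAR with RXR and the NRF1 consensus, given here by name, were searched too. The half-site can overlap the direct repeat. AAGGTCA was in 1 of the 28 member windows (3.57%), that of Acadm, against 4.72% of all 32851 windows and 3.32% of windows of tested genes. The direct repeat was in 0 of 28, against 0.0396% of all windows and 0.0475% of those of tested genes, and CACGTG in 0 of 28, against 7.15% and 9.79%. The NRF1 motif was in 3 of 28 (10.7%; Acad10, Etfb and Etfdh), against 4.60% of all windows and 9.90% of windows of tested genes. CCAAT was in 14 of 28 (50%), against 37.4% of all windows and 37.7% of those of tested genes. GGGCGG was in 23 of 28 (82.1%), against 35.7% of all windows and 61.5% of those of tested genes. These matches are letters only and say nothing of binding. The Acadm window, chr3:153944594-153944893 on the minus strand, is printed with matches to any of the motifs in capitals, here the half-site as its reverse complement.
Acadm: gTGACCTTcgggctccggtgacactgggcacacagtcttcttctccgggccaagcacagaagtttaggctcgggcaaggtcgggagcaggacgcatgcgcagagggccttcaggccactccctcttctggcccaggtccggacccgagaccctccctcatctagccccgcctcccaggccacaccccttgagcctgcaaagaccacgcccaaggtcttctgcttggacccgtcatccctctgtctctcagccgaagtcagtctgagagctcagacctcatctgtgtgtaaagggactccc

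After the dehydrogenase step, long chains are handled by the trifunctional protein, made of alpha subunits from Hadha (hydratase and hydroxyacyl dehydrogenase) and beta subunits from Hadhb (thiolase). Hadha (ENSMUSG00000025745; chromosome 5, 30118304 to 30155162) had 239, 228 and 224 CPM with NETs and 199, 187 and 211 CPM with vehicle. All NETs values were above all vehicle values, and the log2 fold change was 0.22 (SE 0.08; unadjusted p = 0.0140; edgeR adjusted p = 0.277). Hadhb (chromosome 5, 30155248 to 30184593) had 96.2, 101 and 97.5 CPM with NETs and 96.4, 101 and 91.1 CPM with vehicle. These overlapped, with a log2 fold change of 0.04 (SE 0.09; 95% interval −0.14 to 0.22). The FPKM ratio of Hadha to Hadhb was 2.32, 2.12 and 2.14 with NETs and 1.93, 1.73 and 2.17 with vehicle. The means were 2.19 ± 0.111 with NETs and 1.94 ± 0.221 with vehicle (SD, n = 3 each). Vehicle replicate 3 lay inside the NETs range, so the ratios overlapped between groups (exact two-sided permutation p = 0.3, adjusted value 0.48).

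The pair is transcribed divergently, from RefSeq starts 273 bases apart on chromosome 5 (30154980 on the minus strand for Hadha and 30155253 on the plus strand for Hadhb), and their promoter windows overlap by 228 bases. The Hadha window, chr5:30154931-30155230 on the minus strand, is printed because it holds most of the region shared by the pair, with a GC box match, as its reverse complement, in capitals.
Hadha: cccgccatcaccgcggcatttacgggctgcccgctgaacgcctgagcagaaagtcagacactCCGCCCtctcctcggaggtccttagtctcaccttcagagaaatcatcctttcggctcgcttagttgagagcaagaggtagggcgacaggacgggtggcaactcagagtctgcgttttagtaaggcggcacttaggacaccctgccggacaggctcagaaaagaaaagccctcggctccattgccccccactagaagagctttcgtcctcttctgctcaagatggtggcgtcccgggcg

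The other genes of these steps were measured one by one. Acat1 (ENSMUSG00000032047; chromosome 9, 53580522 to 53610382), the mitochondrial acetoacetyl-CoA thiolase of ketone body and isoleucine metabolism, had 102, 109 and 103 CPM with NETs and 97.5, 78.1 and 90.2 CPM with vehicle. Its groups did not overlap, and the log2 fold change was 0.26 (SE 0.09; unadjusted p = 0.0149; edgeR adjusted p = 0.281). Acaa2 (ENSMUSG00000036880; chromosome 18, 74779197 to 74806207), the general mitochondrial thiolase, had 91.1, 86.8 and 88.9 CPM with NETs and 81.5, 68.1 and 85.3 CPM with vehicle. Here too the NETs libraries were all higher, by 0.20 on the log2 scale (SE 0.10; edgeR adjusted p = 0.408). Hadh (ENSMUSG00000027984; chromosome 3, 131233419 to 131272101), the dehydrogenase for medium and short hydroxyacyl chains, had 64.5, 68.3 and 68.5 CPM with NETs and 61.4, 54.4 and 62.9 CPM with vehicle. NETs replicate 1 exceeded vehicle replicate 3 by little, and the log2 fold change was 0.18 (SE 0.09; edgeR adjusted p = 0.433).

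The other 5 genes of these steps had log2 fold changes of −0.05 to 0.08. Echs1, the short-chain enoyl-CoA hydratase, averaged 37.8 ± 2.29 CPM with NETs and 36.1 ± 6.75 CPM with vehicle (SD, n = 3 each). Eci1 and Eci2, isomerases needed for unsaturated chains, had log2 fold changes of 0.06 and 0.01, and Decr1, a reductase for the same substrates, 0.06. Hsd17b10, a dehydrogenase that is also a subunit of mitochondrial RNase P, averaged 35.7 ± 5.60 CPM with NETs and 37.2 ± 4.08 CPM with vehicle. An Eci1 pseudogene and the paralog Eci3 are annotated, so reads of these isomerases are less certain. Of the 10 genes of these steps, 2 (Hadha and Acat1) met an unadjusted p under 0.05 with a higher level, where 6.72% of all genes tested did, and 0 with a lower level. Their median log2 fold change was 0.07, and 4 had NETs libraries wholly above vehicle libraries, where 7.68% of all genes tested did.

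**Figure D4:**
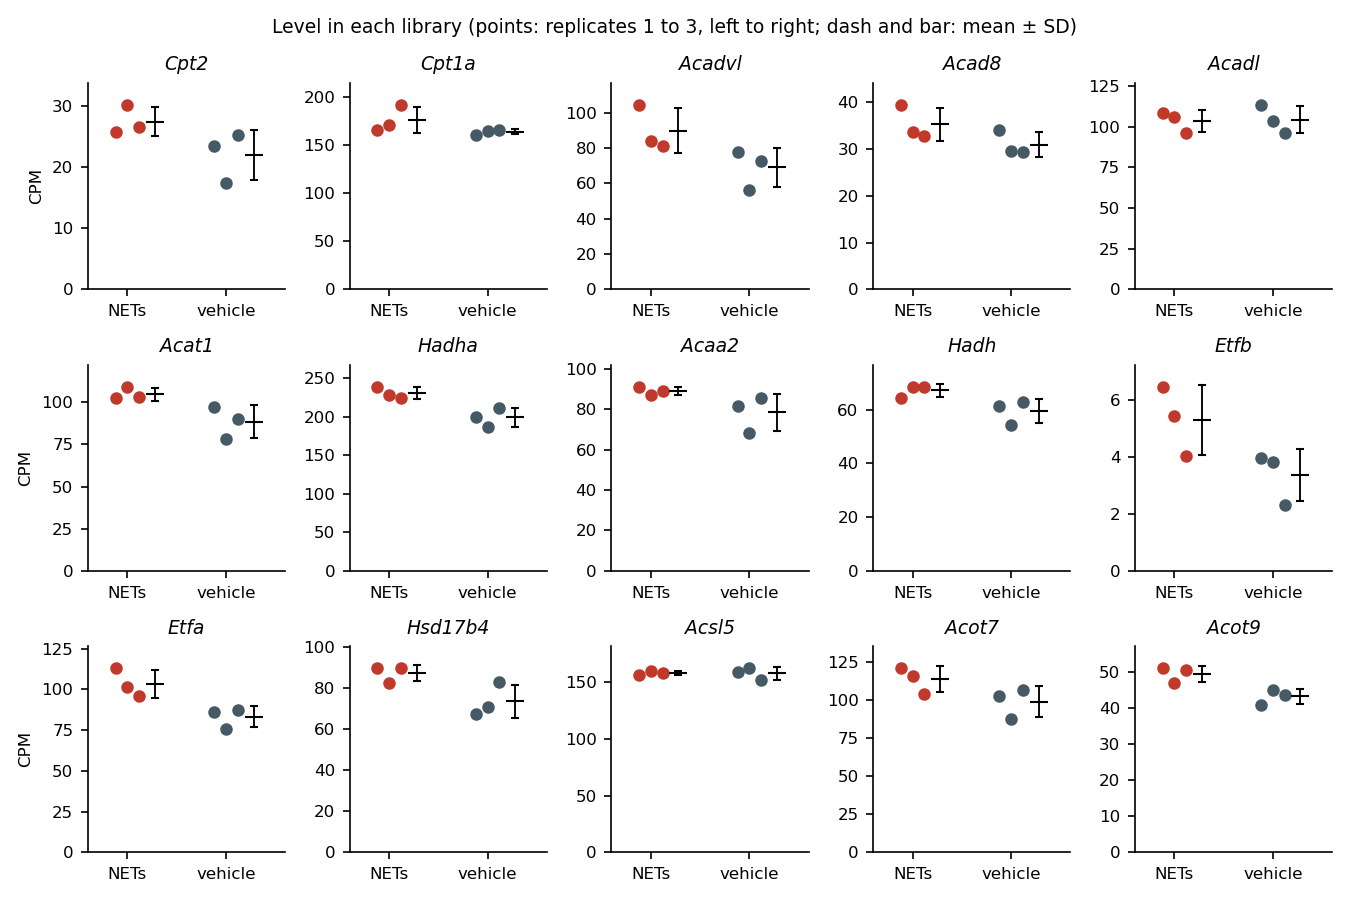
CPM in each library (y axis from 0) of the 15 members described in full; red points are NETs replicates 1 to 3 and grey points vehicle replicates 1 to 3, left to right, and the dash with its bar is the mean ± SD. Acadvl, Etfa, Hadha and Acat1 show NETs points above all vehicle points, while Acsl5 (log2 fold change 0.02) and Acadl (−0.00) overlap.

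The electron transfer flavoprotein is a dimer of Etfa and Etfb products that collects electrons from the acyl-CoA dehydrogenases, and Etfdh encodes the membrane enzyme that passes them to ubiquinone. Etfa (ENSMUSG00000032314; chromosome 9, 55454508 to 55512243) had 113, 101 and 96.0 CPM with NETs and 86.4, 75.9 and 87.3 CPM with vehicle. All NETs values were above all vehicle values, and the means of 103 ± 8.72 and 83.2 ± 6.33 CPM (SD, n = 3 each) differed 1.24-fold. Its log2 fold change was 0.33 (SE 0.09; unadjusted p = 0.00334, the smallest of the 35 members; edgeR adjusted p = 0.223, with 0.0631 to 0.812 over the alternatives). Etfb (ENSMUSG00000004610; chromosome 7, 43444083 to 43457800) had 6.46, 5.44 and 4.02 CPM with NETs and 3.97, 3.83 and 2.30 CPM with vehicle, resting on 37 to 111 reads per library. NETs replicate 3 barely exceeded vehicle replicate 1, and the log2 fold change was 0.66 (SE 0.30; unadjusted p = 0.0421; edgeR adjusted p = 0.370). Etfdh averaged 76.0 ± 7.02 CPM with NETs and 71.3 ± 6.76 CPM with vehicle, with overlapping groups and a log2 fold change of 0.10 (SE 0.10).

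Although the dimer holds its subunits in equal number, the listed FPKM of Etfa exceeded that of Etfb 13.5 ± 2.30-fold with NETs and 17.9 ± 6.71-fold with vehicle (SD, n = 3 each; exact two-sided permutation p = 0.4; adjusted value 0.48). Of the annotated exonic bases of Etfb, 53.0% are shared on the same strand with Gm45233, a gene listed at 0 reads in every library. How reads in shared exons were counted is not given in the sources used here, and the part of this overlap in the low level was not tested. The FPKM ratio of Etfa to Etfdh was 3.49, 2.66 and 2.94 with NETs and 2.49, 2.63 and 2.64 with vehicle. NETs ratios were all higher, by a small margin for NETs replicate 2 (exact two-sided permutation p = 0.1, the smallest possible; adjusted value 0.3). The windows of both dimer genes are printed for comparison, Etfa at chr9:55512194-55512493 on the minus strand and Etfb at chr7:43443822-43444121 on the plus strand. Capitals mark motif matches: CCAAT boxes on either strand in Etfa, and CCAAT boxes as reverse complements, 1 NRF1 motif and 1 GC box in Etfb.
Etfa: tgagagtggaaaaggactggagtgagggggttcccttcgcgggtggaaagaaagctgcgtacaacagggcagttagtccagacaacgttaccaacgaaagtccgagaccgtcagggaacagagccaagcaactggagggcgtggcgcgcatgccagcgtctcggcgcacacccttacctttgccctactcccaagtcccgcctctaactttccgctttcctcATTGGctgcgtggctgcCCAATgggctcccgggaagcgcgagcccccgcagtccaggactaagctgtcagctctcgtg
Etfb: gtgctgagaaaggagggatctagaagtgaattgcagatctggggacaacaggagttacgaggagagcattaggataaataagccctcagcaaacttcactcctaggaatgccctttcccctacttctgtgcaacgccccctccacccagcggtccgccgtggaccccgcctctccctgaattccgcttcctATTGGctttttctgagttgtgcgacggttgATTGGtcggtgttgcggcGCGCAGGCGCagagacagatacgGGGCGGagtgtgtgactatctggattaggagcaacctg

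Peroxisomes shorten very long and branched chains with their own enzymes. Hsd17b4 (ENSMUSG00000024507; chromosome 18, 50128201 to 50196269), the D-bifunctional protein that joins hydratase and dehydrogenase activities, had 89.7, 82.6 and 89.5 CPM with NETs and 67.4, 70.6 and 82.7 CPM with vehicle. Vehicle replicate 3 was level with NETs replicate 2, and the log2 fold change was 0.26 (SE 0.10; unadjusted p = 0.0195; edgeR adjusted p = 0.300, with 0.0630 to 0.812 over the alternatives). Acaa1a, the peroxisomal thiolase, averaged 73.9 ± 6.14 CPM with NETs and 70.5 ± 2.08 CPM with vehicle (SD, n = 3 each), and the log2 fold change was 0.08. It shares 6.57% of its exonic bases with Myd88 on the opposite strand, and its paralog Acaa1b is close in sequence, so its reads are less certain. Acox3, an oxidase for branched chains, had 53.2, 51.4 and 52.4 CPM with NETs and 61.0, 61.8 and 53.3 CPM with vehicle. It was the 1 member whose NETs libraries all lay below the vehicle libraries, and its log2 fold change was −0.15 (SE 0.10; edgeR adjusted p = 0.530). Of the 3 peroxisomal genes, 1 (Hsd17b4) met an unadjusted p under 0.05 with a higher level and 0 with a lower level.

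Thioesterases release free fatty acid and coenzyme A from acyl-CoA. Acot7 (ENSMUSG00000028937; chromosome 4, 152178134 to 152271855), a cytosolic enzyme for long chains, had 121, 115 and 104 CPM with NETs and 102, 87.1 and 106 CPM with vehicle. NETs replicate 3 lay below vehicle replicate 3, and the log2 fold change was 0.21 (SE 0.09; unadjusted p = 0.0418; edgeR adjusted p = 0.369). Acot9 (ENSMUSG00000025287; chromosome X, 155262443 to 155297654), a mitochondrial enzyme, had 51.1, 47.0 and 50.6 CPM with NETs and 41.0, 45.2 and 43.8 CPM with vehicle. Its groups did not overlap, and the log2 fold change was 0.21 (SE 0.10; unadjusted p = 0.0640; edgeR adjusted p = 0.418). Acot13 averaged 21.9 ± 1.54 CPM with NETs and 21.1 ± 2.62 CPM with vehicle (SD, n = 3 each). Of the 3 thioesterases, 1 (Acot7) met an unadjusted p under 0.05 with a higher level and 0 with a lower level.

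Summed by role, CPM did not overlap between groups for the shuttle, the steps after the dehydrogenase, the flavoprotein and the thioesterases. The shuttle summed to 220.0, 230.3 and 235 CPM with NETs and 212, 200.4 and 219.5 CPM with vehicle, so NETs replicate 1 only narrowly exceeded vehicle replicate 3. Cpt1a, whose own groups overlapped, made up most of this sum. Its mean was 176 of 229 CPM with NETs and 164 of 211 CPM with vehicle. The steps after the dehydrogenase summed to 771, 785 and 757 CPM with NETs and 737, 656 and 713 CPM with vehicle. The flavoprotein genes summed to 191, 191 and 172 CPM with NETs and 167, 144 and 163 CPM with vehicle, and the thioesterases to 192, 185 and 177 and to 167, 154 and 168 CPM. Sums overlapped for the dehydrogenases, the peroxisomal genes and the synthetases, the last at 350.5 ± 16.5 CPM with NETs and 354 ± 10.6 CPM with vehicle (SD, n = 3 each).

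**Figure D5:**
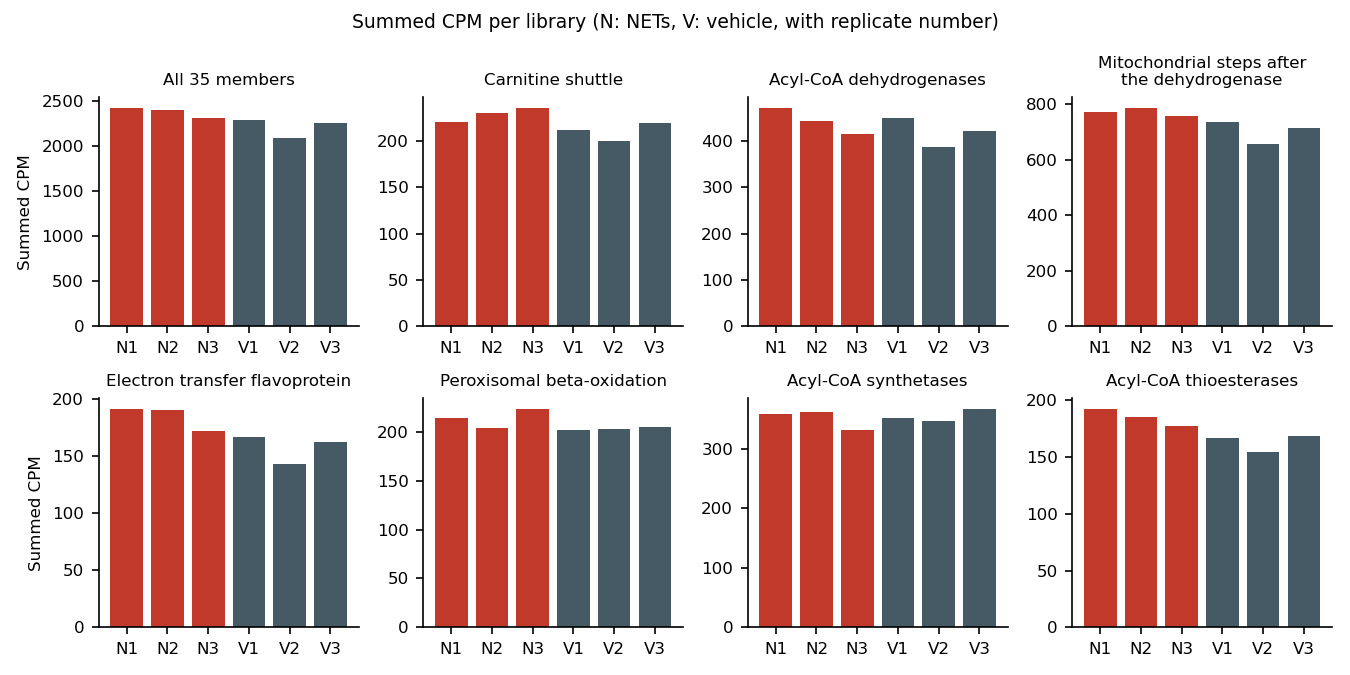
Summed CPM of all 35 members and of each role in each library (bars from 0; N, NETs, red; V, vehicle, grey; the digit is the replicate). The total runs from 2311 to 2417 CPM in NETs libraries and from 2089 to 2284 CPM in vehicle libraries, and the synthetase sums overlap.

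A further 75 genes of fatty acid transport, activation, ketone and propionate metabolism and their regulators were listed beside the members, of which 63 passed the filter. By edgeR, 0 of the 63 passed the adjusted p, 9 (14.3%, against 6.72% of all genes tested) met an unadjusted p under 0.05 with a higher level in NETs libraries and 1 with a lower level (against 6.06%), and their median log2 fold change was 0.09. In CPM, NETs libraries lay wholly above vehicle libraries for 6 of the 63 (9.52%, against 7.68% of all genes tested). They lay wholly below for 2 (against 9.04%). The 8 with the smallest p all had log2 fold changes above 0. Acsl6, a synthetase for long chains known from brain and red cells, had 10.7, 6.25 and 7.81 CPM with NETs and 4.93, 4.47 and 4.10 CPM with vehicle, and the log2 fold change was 0.88 (SE 0.25; edgeR adjusted p = 0.223). All its NETs values were above all vehicle values. Mlycd, which removes the malonyl-CoA that restrains Cpt1a, had 21.1, 20.0 and 21.3 CPM with NETs and 15.6, 15.1 and 17.2 CPM with vehicle (log2 fold change 0.39, SE 0.14; edgeR adjusted p = 0.273). Scp2, a peroxisomal thiolase and sterol carrier, had 155, 153 and 164 CPM with NETs and 136, 135 and 131 CPM with vehicle (0.24, SE 0.08; edgeR adjusted p = 0.252). NETs libraries were likewise all higher for the fatty acid transport protein Slc27a4 (0.34) and the propionyl-CoA carboxylase subunit Pccb (0.33). The groups overlapped for the acyl-CoA binding protein Dbi (0.46), the fatty acid binding protein Fabp5 (0.53) and the nuclear receptor Rxra (0.32).

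Some genes outside that rule are given after their values were seen, because of their known roles. Slc25a20, the carnitine carrier of the inner membrane, averaged 59.7 ± 1.84 CPM with NETs and 56.7 ± 4.11 CPM with vehicle (SD, n = 3 each; log2 fold change 0.09, SE 0.10). Acaca, the carboxylase that makes malonyl-CoA, had 68.8, 74.7 and 63.8 CPM with NETs and 60.1, 50.1 and 65.6 CPM with vehicle (0.25, SE 0.11; edgeR adjusted p = 0.361). Phyh, which starts phytanic acid breakdown in peroxisomes, was the 1 listed gene at an unadjusted p under 0.05 with a lower level, −0.37 (SE 0.17; edgeR adjusted p = 0.380). The receptor Ppara had 0 reads with NETs and 2 with vehicle, and the coactivator Ppargc1a 0 and 1, too few for a test. Ppard, the related receptor, had 62.0, 54.1 and 49.0 CPM with NETs and 55.7, 47.6 and 50.8 CPM with vehicle.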

How the data were processed

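The 6 libraries of mouse T cell RNA, 3 exposed to NETs and 3 to vehicle, were compared. The authors deposited whole-number counts per Ensembl gene, unnormalized, and a second count table identical for all 54532 genes. They also deposited FPKM values, per the file headers, with a gene length that is not given. The submitters' processing notes name STAR, DESeq2 and build mm9, without versions; the deposited coordinates of 32 of the 35 members equal those of the GRCm38 annotation and those of the other 3 differ only at their ends, so GRCm38 is taken as the build. Neither the counting program nor strand use is stated, and 14 members share exonic bases with another gene.

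Counts were filtered with filterByExpr (13900 genes), scaled by TMM and tested with edgeR 4.0.16 in R 4.3.3 (quasi-likelihood, robust, two-sided, group only), with Benjamini-Hochberg adjustment over all genes and a threshold of 0.05. The SE is the absolute log2 fold change divided by the square root of the F statistic, and 95% intervals use the t distribution of that test. Alternatives were DESeq2 1.42.0, limma 3.58.1 on log2 FPKM with pseudocounts of 0.1 and 1, other filters and scaling, a replicate block and leaving out each library. Members described in full are the 12 with the smallest p and the most abundant per length of each of the 7 roles, 15 in all; of the other pathway genes, the 8 with the smallest p. Members, lists and rules were chosen with earlier results of these data known. No pair of libraries agreed within sampling noise.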

Additional observations from a re-analysis of the deposited data

How the results depend on the processing

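The count of all genes past an adjusted p of 0.05 was 0 by edgeR (934 higher and 842 lower at an unadjusted p under 0.05), and also 0 with RLE size factors, with a mean of at least 5 CPM and with the replicate block. It was 322 of 24780 genes with no filter and 145 of the 7004 genes with an adjusted p by DESeq2. By limma on FPKM it was 2 of 13900 at either pseudocount. When a library was left out it was 0 to 405, with 405 of 14391 genes without vehicle replicate 3. Members past that threshold numbered 0 under all of these except for no filter, where 1 member (Acadvl) passed. The 8 members higher at an unadjusted p under 0.05 became 5 with a mean of at least 5 CPM (7.33% of all genes tested, against 6.72% in the reported test). They became 6 with the replicate block (5.14%) or DESeq2 (3.64%), and 3 to 10 when a library was left out (3.03% to 11%). The DESeq2 share of 3.64% is over 24780 genes, with no filter on low counts. Its base therefore differs from that of the other shares and from the 7004 genes with an adjusted p. Members lower at that p numbered 0 to 2 when a library was left out, with 2 without vehicle replicate 3 (9.48% of all genes tested). The members' median log2 fold change ran from 0.06 to 0.13 over the alternatives, and 11 to 14 members had groups that did not overlap, in either direction, when a library was left out, as did 22.6% to 37.3% of all genes tested; with 3 against 3 libraries it was 10 members and 16.7% of all genes. Of the 15 members described in full, 13 kept the sign of their log2 fold change under each alternative in which they were tested (Etfb, under 5 CPM, drops out of the stricter filter). As 12 of the 15 were chosen for the smallest p in these same data, kept signs were largely fixed in advance. Of the other members, Acad11, Acadm, Acads, Acadsb, Acot13, Acsl4, Cpt1c, Crat, Decr1, Echs1, Eci1, Eci2 and Hsd17b10 changed sign under some alternative. Acadl changed sign with no filter (0.0063) and the replicate block (0.00034), as well as without NETs replicate 3 (0.044), vehicle replicate 1 (0.049) or vehicle replicate 2 (0.0019), and ran from −0.057 to 0.049 over the libraries left out. Acsl5 stood at −0.0096 without vehicle replicate 3, and from −0.0096 to 0.048 over the libraries left out; for both, the cause was not tested. Same-numbered libraries did not deviate together (Pearson r across genes −0.03, −0.06 and −0.18 for replicates 1, 2 and 3), so the numbers were not taken as pairs. Between differently numbered libraries r ran from −0.18 (NETs replicate 1 with vehicle replicate 2) to 0.22 (NETs replicate 3 with vehicle replicate 2). It was also above 0 for NETs replicate 1 with vehicle replicate 3 (0.20) and NETs replicate 2 with vehicle replicate 1 (0.09). These positive pairings use each library once, and r was below 0 in all others. Whether libraries with other numbers belong together was not tested. Depth limits the genes with few reads, such as Etfb at 37 to 111 reads per library.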
